A study of Mus musculus with 24 samples.

Results

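The zinc-dependent histone deacetylases of classes I, II and IV were followed in C2C12 cells, an immortalised mouse myoblast line that can fuse into myotubes. The members were Hdac1, Hdac2, Hdac3 and Hdac8 (class I), Hdac4, Hdac5, Hdac7 and Hdac9 (class IIa), Hdac6 (class IIb) and Hdac11 (class IV), which are 10 of the 18194 genes named on the arrays. Every probe set annotated to 1 of these symbols was taken, which gave 18 probe sets, 10 on the design labelled MA and 8 on the design labelled MB. By their titles the cultures were kept in GM or DM with 5 or 25 mM glucose, and the series asks about a low-calorie setting and myoblast differentiation. GM and DM are customary names for growth and differentiation medium in this line, but the titles give only the letters. Each of the 4 groups (GM with 25 mM, GM with 5 mM, DM with 25 mM, DM with 5 mM) had 3 cultures, and biotin-labelled total RNA of each of the 12 cultures was hybridised to both designs, 24 arrays in all. All groups were the same unmodified line. No time in either medium is stated, and nothing says how far apart the 3 cultures of a group were grown, so the p-values measure the spread between these samples, which may be technical.

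Histone deacetylases remove acetyl groups from lysines of histones and other proteins, and most act on chromatin as the catalytic part of larger repressor complexes. Hdac1 and Hdac2 work in the Sin3, NuRD and CoREST complexes, and Hdac3 works with the corepressors NCoR and SMRT. Class IIa enzymes have little activity of their own: they bind Mef2 transcription factors, hold muscle genes silent, and leave the nucleus when kinases phosphorylate them and 14-3-3 proteins bind the phosphorylated sites. In muscle this exit is known as a step that frees Mef2 during differentiation.

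Values are linear probe set intensities in arbitrary units, as the authors deposited them, with nearly equal trimmed means on all arrays of a design; how they were made is not stated. Differences, and the folds taken from them, are on the log2(intensity + 20) scale, which understates the change of dim probe sets. A probe set was tested if it was brighter on average than the 40th percentile of its design, 35.5 on MA and 63.7 on MB, and was called at an adjusted p under 0.05 (limma, Benjamini-Hochberg over all tested probe sets of the design). The MA arrays were the more precise, with a median SE over all tested probe sets of 0.20 against 0.43 on MB. In 4 cultures (GM 5 mM replicates 1 and 2, DM 25 mM replicate 3 and DM 5 mM replicate 2) the control probe sets for 18S ribosomal RNA averaged 11.5 to 19.8 on MA, against 159 to 908 in the other 8, and for called genes that differ with this split, or whose calls change with it, the values are given with the gene. The labels' cell type was checked on 5 myoblast markers. Myod1, the muscle lineage factor, read 976 to 1565 in every culture on MA, but its probe set on MB read 42.5 to 117. On their brightest probe sets Des read 1037 to 3249, Cdh15 511 to 2203 and Ncam1 765 to 1927. Other probe sets of Des and Ncam1 were dimmer, and Myf5 read only 28.1 to 97.4. In DM all 6 myotube markers, such as Myog and Acta1, were higher at both glucose levels. In GM the means of Myog, Acta1, Myh3, Mymk and Tnnt3 were below the filter level, so these passed it through their DM readings. Of 6 proliferation markers, 5 were measured and fell at 25 mM, and 4 fell at 5 mM. Among the adipocyte, osteoblast and blood or endothelial markers, Ptprc, Adipoq and Pecam1 were too dim to pass the filter. Cebpa passed it, with means of 265 and 294 in GM at 25 and 5 mM. In all, 4 of these 16 markers passed. Of these 4, Cebpa (-1.91 and -2.04) and Cd14 (-1.51 and -1.05) were lower in DM at 25 and 5 mM on the log2 scale (limma adjusted p of 0.00273 or less), and their part in the member results was not tested. Bulk RNA cannot tell fewer cells of a type from less RNA per cell.

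Between the media, Hdac11 rose and Hdac7, Hdac5, Hdac3 and Hdac6 fell in DM at both glucose levels. Hdac2 rose at 25 mM and Hdac1 fell at 5 mM. At 25 mM glucose the called falls ranged from Hdac7, 2.80-fold lower, to Hdac3, 1.22-fold lower, and Hdac11 was 1.80-fold higher on the probe set that was above the filter in both media. Hdac4, Hdac8 and the dimmer Hdac2 probe set on MB passed no test, and Hdac9 was too dim to test. Glucose concentration moved no member past the threshold in either medium.

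Of the 18 probe sets 16 were tested, 9 on MA and 7 on MB, and they stood for 9 of the 10 genes. At 25 mM glucose 9 of 16 were called between DM and GM, 4 higher and 5 lower, where 21.3% of all 27081 tested probe sets were called, 9.83% higher and 11.5% lower. At 5 mM 9 of 16 were called, 2 higher and 7 lower, against 17.6% of all, 7.52% higher and 10.1% lower. Most member calls came from MA, with 8 of 9 called at either glucose level, where 35.6% of MA probe sets were called at 25 mM and 29% at 5 mM. The called probe sets stood for 6 genes at each glucose level, on MA as over both designs. On MB 1 of 7 was called at each glucose level, against 6.97% and 6.23%. The groups did not overlap for 4 higher and 8 lower of the 16 at 25 mM, against 15.4% and 20.3% of all, and for 2 higher and 7 lower at 5 mM, against 13.6% and 17.7%. The median difference over the members was -0.28 at 25 mM and -0.50 at 5 mM, beside -0.09 and -0.03 over all tested probe sets. Without GM 25 mM replicate 2 the count at 25 mM was 5 rather than 9, where 18.1% of all tested probe sets were called. Hdac3, Hdac6 and both called Hdac2 probe sets then missed the threshold.

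**Figure D1:**
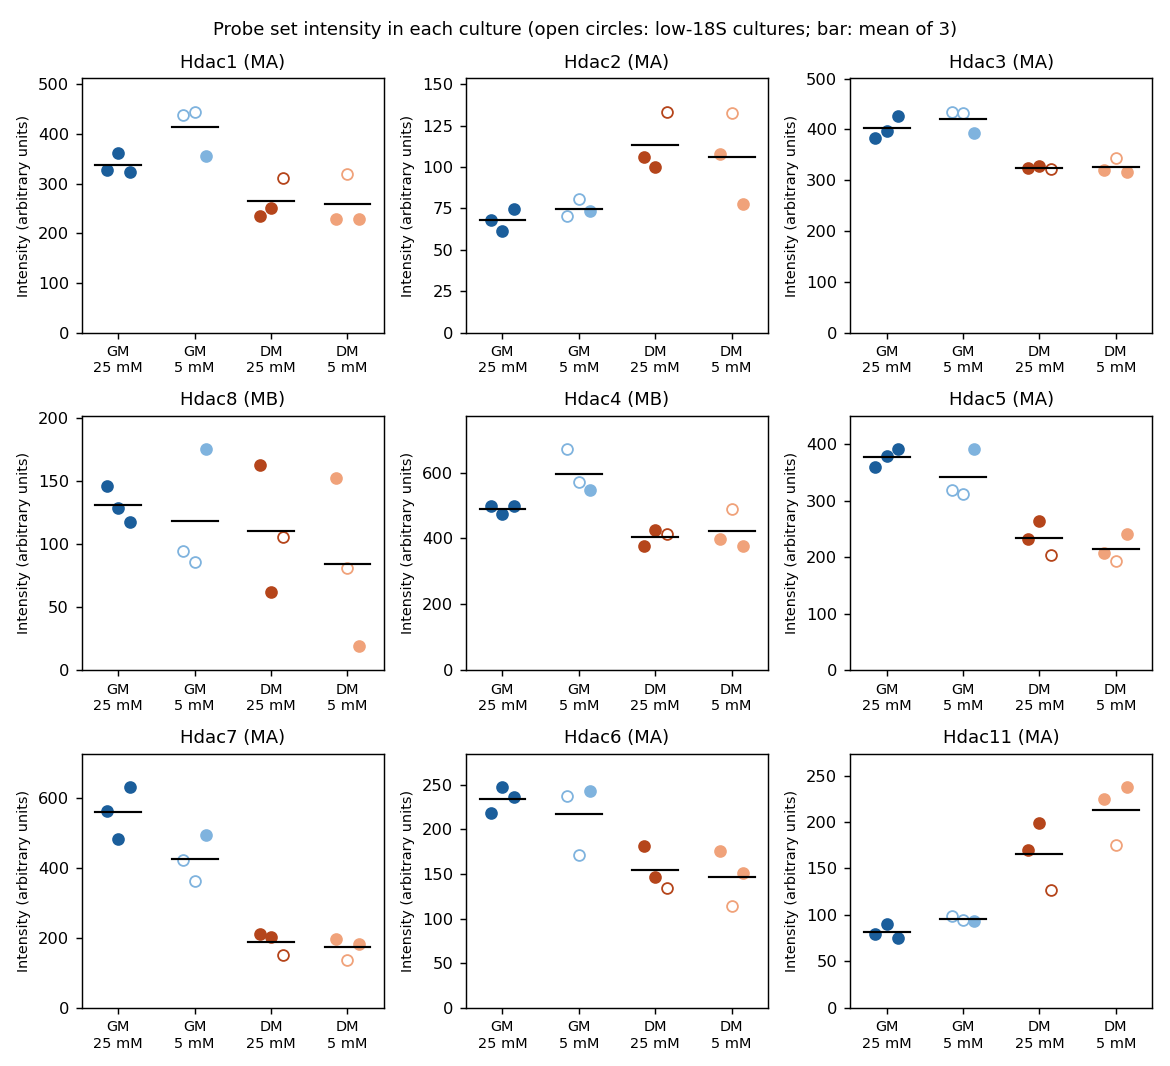
Intensity (arbitrary units, each axis starting at 0) of 1 probe set for each of the 9 tested genes in each culture, in the 4 groups of 3. Points are cultures, bars are group means and open circles mark the 4 cultures with low 18S signal: Hdac7 lies between 361 and 631 in GM and between 137 and 210 in DM, while Hdac11 lies between 75.3 and 98.5 in GM and between 127 and 238 in DM.

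Hdac11 is the only class IV enzyme and is known as an efficient remover of long fatty-acyl groups from lysine. The largest estimated rise among the members was on its probe set 1451229_at. On this probe set (MA) the GM cultures read 13.4, 47.2 and 48.4 at 25 mM glucose and 37.4, 35.7 and 27.8 at 5 mM. In DM they read 172, 213 and 171 at 25 mM and 207, 192 and 183 at 5 mM. Every DM culture thus stood above every GM culture by a wide gap, and the lowest GM reading was replicate 1 at 25 mM. The log2 difference was 1.93 ± 0.24 (SE, n = 3 against 3) at 25 mM, with an adjusted p of 2.27e-05 (limma, Benjamini-Hochberg), and 1.997 at 5 mM, with an adjusted p of 1.89e-05. The GM group means, 36.4 ± 19.9 and 33.6 ± 5.13 (SD, n = 3), lay at about the filter level of 35.5, and the probe set passed the filter through its DM readings. Its call, included in the counts over members, and the size of its difference therefore rest on GM readings not shown to be above background, and no fold is given.

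The other Hdac11 probe set, 1454803_a_at (MA), was brighter than the filter level in every culture. It gave 79.9, 90.3 and 75.3 in GM with 25 mM and 98.5, 94.9 and 93.5 in GM with 5 mM. In DM it gave 169, 199 and 127 with 25 mM and 225, 175 and 238 with 5 mM. Here too the media did not overlap, and the step was smaller than on the first probe set, 0.85 ± 0.17 at 25 mM and 0.998 ± 0.17 at 5 mM on the log2 scale (limma adjusted p = 0.00145 and 0.000447). At 5 mM glucose all 3 GM cultures were above those at 25 mM, and a non-overlapping rise of this kind was found in 7.31% of all tested probe sets, with a log2 difference of 0.19 and an adjusted p of 0.662. On 1454803_a_at the low-18S cultures differed from the others by -0.27 ± 0.12 (SE) on the log2 scale. Of these 4 cultures, 2 were above the others of their group, both in GM, and 2 below, both in DM. The probe set 1454803_a_at stayed called under all 24 alternative settings in both comparisons of the media. The first probe set stayed called as well. Each setting drew on its GM readings, which were not shown to be above background, so this adds no support for its rise.

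The sequence just before the Hdac11 start site is shown because it holds a match to the E-box core CAGCTG, a form that MyoD and myogenin can bind, in a gene that rose together with Myog. It is set beside the windows of Hdac2, which also rose, and Hdac5, which fell. The windows are the 250 bases before the start in the RefSeq promoter table (build GRCm38.p6), written 5′ to 3′ along the gene, with capitals marking matches on either strand to CAGCTG, to the GC box GGGCGG and to the MEF2 consensus.
Hdac11 promoter, chr6:91156565-91156814 (+ strand): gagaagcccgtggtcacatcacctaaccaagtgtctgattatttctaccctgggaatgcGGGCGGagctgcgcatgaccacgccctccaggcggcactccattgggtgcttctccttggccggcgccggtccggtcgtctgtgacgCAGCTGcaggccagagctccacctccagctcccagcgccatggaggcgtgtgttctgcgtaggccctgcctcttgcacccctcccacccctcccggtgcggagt
Hdac2 promoter, chr10:36974294-36974543 (+ strand): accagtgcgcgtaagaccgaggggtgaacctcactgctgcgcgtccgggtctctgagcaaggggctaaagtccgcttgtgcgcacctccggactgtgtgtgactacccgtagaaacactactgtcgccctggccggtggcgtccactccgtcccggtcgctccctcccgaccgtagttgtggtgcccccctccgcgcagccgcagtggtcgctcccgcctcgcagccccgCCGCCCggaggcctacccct
Hdac5 promoter, chr11:102230173-102230422 (- strand): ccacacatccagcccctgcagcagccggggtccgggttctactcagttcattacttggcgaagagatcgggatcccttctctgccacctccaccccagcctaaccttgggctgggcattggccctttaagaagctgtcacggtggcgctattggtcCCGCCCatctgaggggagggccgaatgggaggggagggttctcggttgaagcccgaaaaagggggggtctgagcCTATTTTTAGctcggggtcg
In the Hdac11 window the E-box match begins at position -104 and the GC box at position -191, counted from the start site. Both windows of Hdac9, which was too dim to test, also held CAGCTG, at positions -183 and -89. The E-box was thus not particular to a member that rose. Among all 32851 windows of this length 13.0% held CAGCTG and 32.7% held GGGCGG. The Hdac5 window held a MEF2 consensus match at position -20, which 0.508% of all windows held, and a GC box at position -94. Hdac2 had a GC box at position -20 and 27 CpG sites in its window, against 17 for Hdac11 and 12 for Hdac5. Windows were read for 8 of the 10 members, without Hdac1 and Hdac3, and a match is a description of these letters and not evidence of binding.

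Hdac7 is a class IIa enzyme that represses Mef2 and is known for its removal from the nucleus during myoblast differentiation. It had the largest fall among the members. On 1420813_at (MA) the GM cultures read 561, 481 and 631 at 25 mM glucose and 421, 361 and 493 at 5 mM. The DM cultures read 210, 202 and 149 at 25 mM and 197, 137 and 183 at 5 mM. The lowest GM culture was well above the highest DM culture. The difference was -1.48 ± 0.17 at 25 mM (limma adjusted p = 9.67e-06, 2.80-fold lower) and -1.21 ± 0.17 at 5 mM (adjusted p = 7.49e-05, 2.32-fold lower). This probe set also moved with the 18S split: all 4 low-18S cultures read below the others of their group, with a log2 difference of -0.38 ± 0.10 (SE), and with the split in the model the differences between media were -1.36 and -1.34.

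The second Hdac7 probe set, 1420812_at (MA), was dimmer. It read 177, 161 and 172 in GM with 25 mM, 189, 206 and 134 in GM with 5 mM, 32.8, 65.9 and 51.0 in DM with 25 mM and 38.8, 51.7 and 97.2 in DM with 5 mM. The media were again separate. Its differences, -1.47 ± 0.25 and -1.29 ± 0.25, were near those of 1420813_at (limma adjusted p = 0.000391 and 0.00126). At 5 mM it missed the threshold in the 8 high-18S cultures alone, at -0.89 and an adjusted p of 0.146, where GM with 5 mM is left with 1 culture.

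Hdac5, another class IIa repressor of Mef2, was measured by the same probe set, 1415743_at, on both designs. On MA it read 360, 380 and 391 in GM with 25 mM and 320, 313 and 391 in GM with 5 mM. In DM it read 232, 264 and 204 with 25 mM and 207, 193 and 242 with 5 mM. No DM culture reached the lowest GM culture. The fall was -0.65 ± 0.13 on the log2 scale at 25 mM (limma adjusted p = 0.00165) and -0.62 ± 0.13 at 5 mM (adjusted p = 0.00266). As with Hdac7, all 4 low-18S cultures lay below the others of their group, with a difference of -0.25 ± 0.09, and with the split in the model the differences were -0.57 and -0.71.

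On MB the same Hdac5 probe set read 1969, 1591 and 1690 in GM with 25 mM, 2328, 1846 and 2102 in GM with 5 mM, 1397, 1314 and 1239 in DM with 25 mM and 1223, 1260 and 1144 in DM with 5 mM. The media did not overlap at either glucose level. The difference passed the test at 5 mM, -0.78 ± 0.16 (limma adjusted p = 0.00392), and not at 25 mM, where it was -0.40 (adjusted p = 0.162). With quantile normalization it passed at 25 mM too, at -0.72 and an adjusted p of 0.00575. On MB the order of the 2 GM groups was the reverse of that on MA, with the mean at 5 mM above that at 25 mM (2092 ± 241 and 1750 ± 196, SD, n = 3), but neither difference passed its test. The call at 5 mM was lost in the high-18S cultures alone (-0.82, adjusted p = 0.0642) and in a fit without a mean-variance trend (adjusted p = 0.0867).

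Hdac4, the class IIa enzyme best known for repressing muscle genes and for the response to denervation, was measured only on MB, by 3 probe sets. The brightest, 1454693_at, read 498, 473 and 500 in GM with 25 mM and 671, 573 and 546 in GM with 5 mM. In DM it read 376, 426 and 413 with 25 mM and 399, 491 and 377 with 5 mM. All DM cultures were below all GM cultures of the same glucose level, as were 20.3% of all tested probe sets at 25 mM and 17.7% at 5 mM, yet the differences of -0.27 ± 0.20 and -0.48 ± 0.20 did not pass the test (limma adjusted p = 0.551 and 0.214). The other Hdac4 probe sets, 1436758_at at 226 to 377 and 1447566_at at 38.6 to 299.6, overlapped between all groups and were not called. At 25 mM their differences were 0.07 (95% interval -0.46 to 0.59) and 0.50 (-0.73 to 1.72), and at 5 mM -0.22 (-0.75 to 0.30) and -1.03 (-2.26 to 0.19).

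Hdac9, whose splice form MITR lacks the catalytic domain and still binds Mef2, read 1.2 to 15.2 on 1421306_a_at (MA) and 5.48 to 59.2 on 1434572_at (MB). These means lay at the 3.84th and 8.08th percentile of their designs, below the filter, so no change could be read.

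Hdac1 and Hdac2, closely related class I enzymes, moved in opposite directions where they passed the test. Hdac1, on 1448246_at (MA), read 328, 361 and 324 in GM with 25 mM and 438, 445 and 356 in GM with 5 mM. It read 234, 250 and 311 in DM with 25 mM and 229, 320 and 228 in DM with 5 mM. The DM cultures were below the GM cultures at each glucose level, and the fall passed the test at 5 mM, at -0.64 ± 0.15 (limma adjusted p = 0.00528), and not at 25 mM, at -0.34 ± 0.15 (adjusted p = 0.103). In all 4 low-18S cultures Hdac1 was above the others of its group, by 0.36 ± 0.08 on the log2 scale. With the split in the model the fall at 25 mM was -0.46 and passed (adjusted p = 0.00197), as it did in the high-18S cultures alone (-0.45, adjusted p = 0.0207) and without DM 25 mM replicate 3, a low-18S culture (-0.45, adjusted p = 0.0498). Array weights gave -0.40 (adjusted p = 0.029). At 5 mM the split made the fall -0.52 (adjusted p = 0.000783).

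Hdac2, on 1449080_at (MA), read 67.9, 61.6 and 74.5 in GM with 25 mM and 70.6, 80.7 and 73.7 in GM with 5 mM. In DM it read 106, 100.4 and 134 with 25 mM and 108, 133 and 77.9 with 5 mM. The media were separate at 25 mM and overlapped at 5 mM, where DM replicate 3 fell within the GM range. The rise was 0.59 ± 0.19 at 25 mM (limma adjusted p = 0.0231) and 0.39 ± 0.19 at 5 mM (adjusted p = 0.146). The call at 25 mM was lost without GM 25 mM replicate 1 (0.59, adjusted p = 0.0515), GM 25 mM replicate 2 (0.54, 0.0679) or DM 25 mM replicate 3 (0.49, 0.0956), and in the high-18S cultures alone (0.49, 0.0898). At 5 mM the difference became a call without DM 5 mM replicate 3 (0.56, adjusted p = 0.0449) and with the 18S split in the model (0.48, adjusted p = 0.0348).

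A second Hdac2 probe set, 1445684_s_at (MB), was bright and read 1610, 1106 and 1335 in GM with 25 mM and 1879, 2058 and 1221 in GM with 5 mM. In DM it read 2403, 2446 and 2675 with 25 mM and 2338, 2622 and 1780 with 5 mM. Again the media were separate at 25 mM only. The rise there was 0.90 ± 0.21 (limma adjusted p = 0.00868), against 0.40 ± 0.21 at 5 mM (adjusted p = 0.377), and without GM 25 mM replicate 2 it was 0.76 (adjusted p = 0.06). A fit without a mean-variance trend also ended the call (adjusted p = 0.0999). The low-18S cultures were above the others of their group in 4 of 4 cases, by 0.39 ± 0.14, and with the split in the model the difference at 25 mM was 0.77 (adjusted p = 0.00499). The third probe set, 1439704_at (MB), lay between 48.3 and 151 in all groups and was not called. The suffix _s_at marks probe sets that can match more than 1 transcript.

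Hdac3 is the catalytic subunit of the NCoR and SMRT complexes, through which class IIa proteins recruit deacetylase activity. On 1426437_s_at (MA) it read 383, 396 and 426 in GM with 25 mM and 435, 432 and 394 in GM with 5 mM. It read 323, 327 and 322 in DM with 25 mM and 320, 344 and 315 in DM with 5 mM. No DM culture reached a GM culture, and the SE was the lowest of any member probe set tested. The fall was small, -0.29 ± 0.10 at 25 mM and -0.35 ± 0.10 at 5 mM (limma adjusted p = 0.0428 and 0.0225). Its call at 25 mM depended on single cultures: the adjusted p was 0.0521, 0.0766 and 0.127 without GM 25 mM replicates 1, 2 and 3, 0.0596 and 0.0601 without GM 5 mM replicates 1 and 2, 0.0904, 0.0815 and 0.0909 without DM 25 mM replicates 1, 2 and 3, and 0.0532 without DM 5 mM replicate 1. At 5 mM it was 0.0858 and 0.0809 without GM replicates 1 and 2, and 0.0666 and 0.0669 without DM replicates 1 and 3, so single cultures decided that call too. Both calls were also lost with median centring of the arrays (adjusted p = 0.135 and 0.0856), in the high-18S cultures alone (-0.29 at both levels, 0.097 and 0.273) and with only the arrays compared (0.0941 and 0.0595), whereas with the 18S split in the model they held (-0.32 at both levels, 0.0155 and 0.0163). The call at 25 mM was lost in 15 of 24 alternatives and that at 5 mM in 7.

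Hdac8, a class I enzyme that deacetylates the cohesin subunit Smc3, was measured on MB by 1428933_at at 146, 128 and 118 in GM with 25 mM, 94.3, 85.6 and 175 in GM with 5 mM, 163, 62.0 and 105 in DM with 25 mM and 152, 80.8 and 19.4 in DM with 5 mM. All groups overlapped, and no difference passed the test.

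Hdac6, the class IIb enzyme, works mainly in the cytoplasm on tubulin and cortactin and carries ubiquitinated protein to aggresomes. On 1448928_at (MA) it read 218, 248 and 236 in GM with 25 mM and 238, 172 and 243 in GM with 5 mM. In DM it read 182, 147 and 134 with 25 mM and 176, 114 and 151 with 5 mM. The media were separate at 25 mM, while at 5 mM GM replicate 2 lay below DM replicate 1. The fall was -0.55 ± 0.17 at 25 mM and -0.51 ± 0.17 at 5 mM (limma adjusted p = 0.0239 and 0.0396). All 4 low-18S cultures were below the others of their group, with a difference of -0.31 ± 0.12, and with the split in the model the differences were -0.44 and -0.62 (adjusted p = 0.0214 and 0.00326). In the high-18S cultures alone they were -0.47 and -0.53, and the call at 5 mM was lost (adjusted p = 0.0382 and 0.113).

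The Hdac6 calls also depended on single cultures. At 25 mM the adjusted p was 0.0728 and 0.0601 without GM 25 mM replicates 2 and 3, and 0.0658 and 0.0831 without DM 25 mM replicates 2 and 3. At 5 mM it was 0.0516 without GM 25 mM replicate 3, 0.142 and 0.123 without GM 5 mM replicates 1 and 3, and 0.146 and 0.0706 without DM 5 mM replicates 2 and 3. The call at 5 mM also missed the threshold with array weights (adjusted p = 0.0501), with no filter (0.0593), without a mean-variance trend (0.0526) and with only the arrays compared (0.0791), and was lost in 12 of 24 alternatives in all. Median centring and quantile normalization ended both Hdac6 calls, with differences between -0.51 and -0.43.

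**Figure D2:**
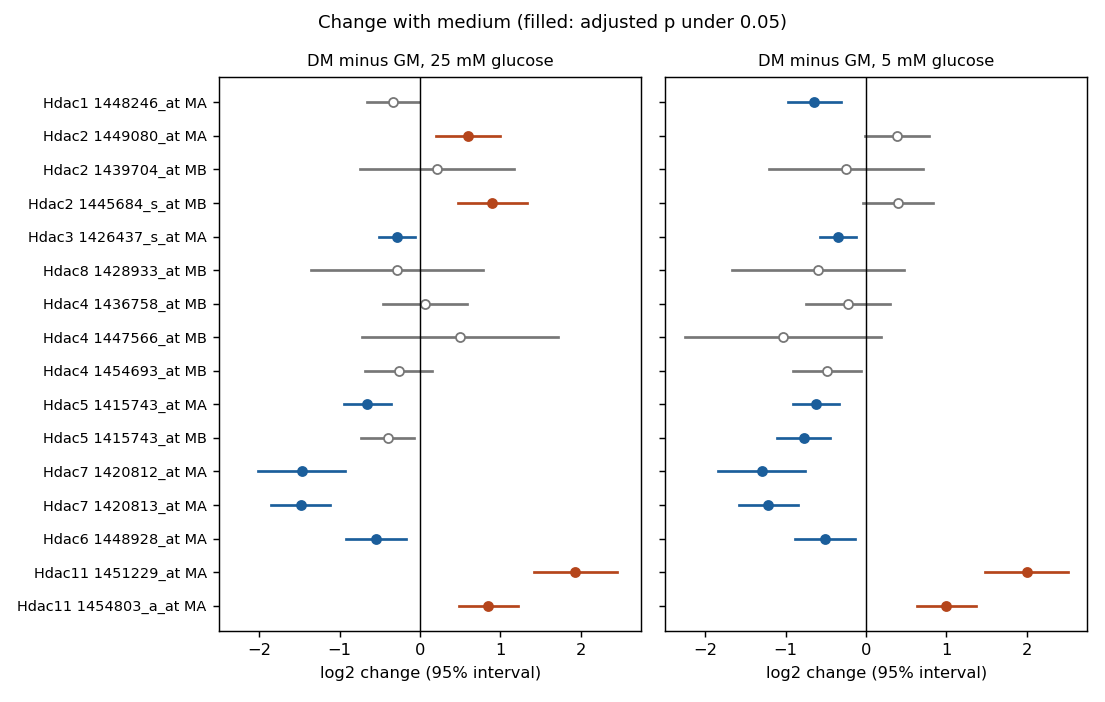
Log2 difference between DM and GM (x axis, point with its 95% interval) for each of the 16 tested probe sets, at 25 mM glucose on the left and at 5 mM on the right. Filled points passed an adjusted p of 0.05: at 25 mM the points run from -1.48 (Hdac7) to 1.93 (Hdac11), and the widest intervals are on MB.

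Lower glucose addresses the calorie question of the series directly. None of the 16 member probe sets was called between 5 and 25 mM in GM (limma, where 0.00369% of all tested probe sets were called) or in DM (0.864% called). At an unadjusted p under 0.05 there was 1 in GM and 0 in DM, against 2405 and 2178 of all 27081 tested probe sets. That 1 was Hdac7 on 1420813_at, at 561, 481 and 631 with 25 mM and 421, 361 and 493 with 5 mM, where the groups overlap. The difference was -0.38 with a 95% interval from -0.74 to -0.01 and an adjusted p of 0.46 (limma). Of the 3 GM cultures with 5 mM glucose 2 had low 18S, and no GM culture with 25 mM did, so the split moves with this contrast: with it in the model the difference was -0.12, and in the high-18S cultures alone -0.16. Values at 5 mM stood wholly above those at 25 mM in GM for 2 of 16 member probe sets, against 7.31% of all tested probe sets. They stood wholly below for 0 of 16, against 8.3% of all. The 2 were 1454803_a_at of Hdac11 and 1454693_at of Hdac4. The latter read 546 to 671 against 473 to 500.0, with a difference of 0.27 (-0.15 to 0.69, limma adjusted p = 0.776).

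The intervals show what the arrays could have seen. On MA the 95% intervals of the glucose effect in DM ran from -0.50 to 0.75 over the 9 probe sets, with estimates from -0.11 (Hdac5) to 0.34 (Hdac11, 1454803_a_at, adjusted p = 0.544). In GM the MA estimates ran from -0.38 to 0.27. On MB the intervals reached from -1.76 to 0.98 in DM and from -1.25 to 2.22 in GM. A change of 2-fold could not be told from none for 1447566_at of Hdac4 and 1428933_at of Hdac8 in either medium. In GM the same held for 1439704_at of Hdac2 (-0.48 to 1.44). Hdac3 was the most tightly bound, with 0.06 (-0.16 to 0.29) in GM and 0.01 (-0.22 to 0.23) in DM.

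Whether the step between media differed by glucose level was tested as an interaction. It was called for 0 of 16 member probe sets (limma), against 0.284% of all. At an unadjusted p under 0.05 there were 0 members, against 2493 of all 27081 tested probe sets. The interaction estimates on MA lay between -0.31 (Hdac1) and 0.27 (Hdac7), and those on MB between -1.53 (Hdac4, 1447566_at) and -0.22. So Hdac1, called at 5 mM only, and Hdac2, called at 25 mM only, were not shown to respond differently at the 2 levels: the interaction was -0.31 (-0.77 to 0.16) for Hdac1, and for Hdac2 it was -0.21 (-0.77 to 0.36) on MA and -0.50 (-1.11 to 0.11) on 1445684_s_at.

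**Figure D3:**
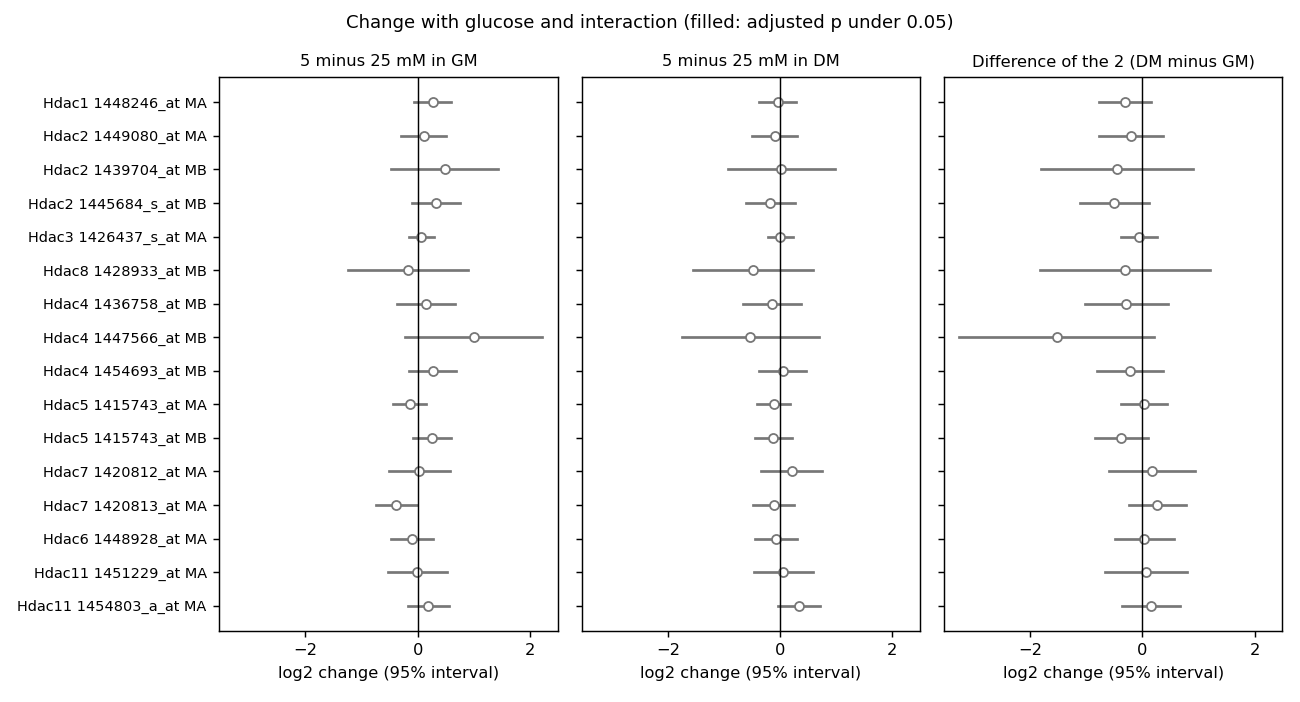
Log2 difference between 5 and 25 mM glucose in GM (left) and in DM (middle), and the difference between those effects (right), with 95% intervals, for the 16 tested probe sets. No point is filled, since none passed an adjusted p of 0.05, and the widest interval, that of Hdac4 on 1447566_at, runs from -3.26 to 0.20 for the interaction.

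The order of the group means was the same for Hdac5, Hdac6 and Hdac7 (1420813_at) on MA: GM with 25 mM, GM with 5 mM, DM with 25 mM and DM with 5 mM. For Hdac7 the means were 557 ± 75.2, 425 ± 66.1, 187 ± 33.0 and 172 ± 31.0 (SD, n = 3). Neighbours within a medium overlapped in all 3 genes. The step between the media separated the groups for Hdac5 and Hdac7, while for Hdac6 GM with 5 mM overlapped with both DM groups. On these probe sets all 4 low-18S cultures read below the others of their group, and 2 of 3 GM cultures with 5 mM were low-18S. The part of the split in this order was not tested. Hdac7 on 1420812_at (170, 176, 49.9 and 62.6) and Hdac5 on MB (1750, 2092, 1316.5 and 1209) did not keep it. For Hdac1 and Hdac3 the highest mean was GM with 5 mM, at 413 ± 49.4 and 420.2 ± 22.9. Hdac11 ran the other way, from 81.8 ± 7.64 in GM with 25 mM to 213 ± 33.2 in DM with 5 mM on 1454803_a_at.

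Genes that work with the deacetylases were read from lists of complex subunits, kinases, targets and partners, using the brightest tested probe set of each gene. Of 12851 genes measured this way, 12.2% were higher and 15.9% lower in DM at 25 mM glucose, and 9.5% and 13.7% at 5 mM. In the NCoR and SMRT complex of Hdac3, 0 of 3 measured genes rose and 2 fell at 25 mM and 1 at 5 mM. Tbl1x, an exchange factor of that complex, fell at both levels, with log2 differences of -0.79 and -0.97 (limma adjusted p = 0.000831 and 0.000162), and Tbl1xr1 fell by 0.44 at 25 mM (adjusted p = 0.0159).

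The Sin3 complex had 2 genes higher and 1 lower of 11 at both glucose levels. Sap30, a subunit that stabilises Sin3 with Hdac1, rose by 1.47 and 1.36 (limma adjusted p = 3.34e-07 and 8.01e-07), and the scaffold Sin3b by 0.54 and 0.41. Sap30l, the paralog of Sap30, fell at both levels, with -0.996 and -0.76 (adjusted p = 5.19e-05 and 0.000615). Of 11 NuRD genes, 2 rose and 4 fell at 25 mM, and 0 rose and 5 fell at 5 mM. Mta3 (-1.06 and -1.73, adjusted p = 0.00212 and 3.73e-05), Mta1 (-0.62 and -0.77) and the methyl-CpG binder Mbd2 (-0.79 and -0.78) fell at both levels. In the CoREST and MiDAC lists 1 of 9 genes changed at each level: Zmym2 rose by 1.02 at 25 mM (adjusted p = 0.0139) and the scaffold Rcor1 fell by 0.76 at 5 mM (adjusted p = 0.0268).

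Among 11 kinases of class IIa deacetylases, 3 rose at each glucose level, and 2 fell at 25 mM and 1 at 5 mM. Camk2a, a calcium-dependent kinase that acts on Hdac4, rose by 2.62 and 3.08 (limma adjusted p = 0.00104 and 0.000194). Mark3 rose by 0.88 and 0.51 and Sik1 by 0.74 and 0.96. The protein kinase D member Prkd3 fell at both levels, with -0.62 and -0.65 (adjusted p = 0.00503 and 0.00412). Of 6 genes for 14-3-3 proteins, which hold phosphorylated class IIa enzymes in the cytoplasm, none rose at either level, Ywhah fell at both (-0.83 and -0.64), and Ywhaq fell at 5 mM by 0.67.

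All 3 measured Mef2 genes, the targets of class IIa repression, were higher in DM. Mef2a rose by 2.46 and 2.29, Mef2d by 1.93 and 1.38 and Mef2c by 3.09 and 2.20, with adjusted p values from 2.18e-09 to 2.62e-05 (limma). In DM, Mef2c was also lower at 5 mM than at 25 mM glucose, by a log2 difference of -1.36 (adjusted p = 0.0212). Of 14 genes linked to Mef2 or Hdac4 control, 10 rose and 1 fell at 25 mM, and 11 rose and 0 fell at 5 mM. They included Myog (7.46 and 7.22), the M-band gene Myom2 (6.27 and 6.12) and Stac3, which serves calcium release (5.73 and 5.82). Myog averaged 14.8 and 20.6 in GM at 25 and 5 mM, below the filter level of 35.5. The size of its difference therefore rests on GM readings not shown to be above background. The list was drawn up knowing that muscle genes rise in these cultures, so its direction is not independent evidence. In DM, Myom1 was lower at 5 mM glucose (-1.12, adjusted p = 0.00624) and Nr4a1, an early response gene, was higher (0.73, adjusted p = 0.047).

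Of 12 histone acetyltransferases, which oppose the deacetylases, 1 rose and 2 fell at both levels. Ncoa1 rose by 1.87 at 25 mM (limma adjusted p = 2.99e-06) and also rose at 5 mM (adjusted p = 2.86e-05). Kat7 (-0.39 and -0.54) and Kat6a (-0.49 and -0.60) fell at both levels. Among 8 partners of Hdac6 and Hdac8, 1 rose and 2 fell at 25 mM, and 2 rose and 5 fell at 5 mM. Cttn, which encodes cortactin, a substrate of Hdac6, fell at both levels, with -0.60 and -0.89 (adjusted p = 0.00265 and 0.000124), as did the autophagy receptor Sqstm1 (-0.58 and -0.51). Smc3, the substrate of Hdac8, fell by 0.53 at 5 mM (adjusted p = 0.00865). Hdac10, the other class IIb enzyme, was at -0.29 and -0.01 and was not called (adjusted p = 0.574 and 0.996).

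**Figure D4:**
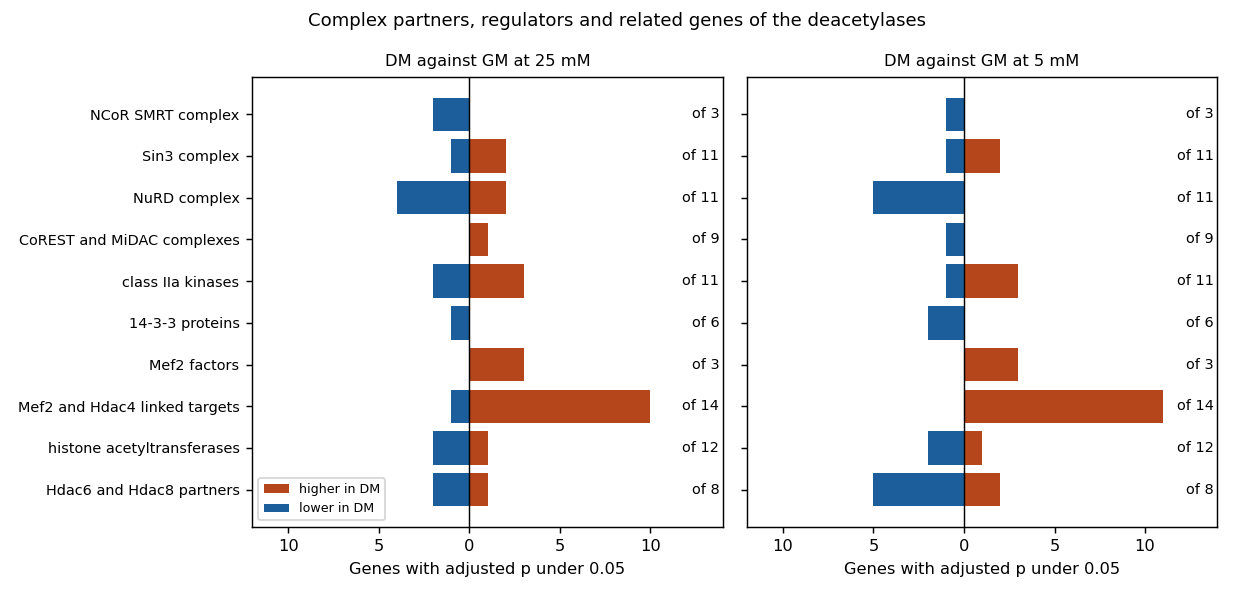
Number of genes in each list (rows) that passed an adjusted p of 0.05 between DM and GM, higher in DM to the right of 0 and lower to the left, at 25 mM (left panel) and 5 mM glucose (right panel), with the number measured at the right edge. The Mef2 linked targets have the longest bars, 10 and 11 of 14 higher, while most complexes have genes on both sides or few in all.

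For each called member the 3 genes with the most similar profile over the 12 cultures were named by Pearson's r on the same design. The points share their arrays and the step between media, so r is a description only. Nearest to Hdac7 were Igsf8 (r = 0.987), Tnfrsf1b (0.987) and Sun2 (0.986), and nearest to Hdac5 were Dap (0.985), Prpsap1 (0.984) and Gm2a (0.983). Hdac3 was most like Kmt2a, a histone methyltransferase (0.985), Chst14 (0.983) and Ppp1r11 (0.978). Hdac1 lay closest to Smc2, a condensin subunit (0.978), Tmpo (0.975) and Nectin3 (0.973), and Hdac6 to Mxra8 (0.967), Mxd3 (0.962) and Krba1 (0.955). For the members that rose, Hdac11 (1454803_a_at) was most like Ufc1 (0.980), Cnot6l (0.977) and Gadd45g (0.975), and Hdac2 like Dld (0.969), Ankrd44 (0.964) and Acvr2a (0.958).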

How the data were processed

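The authors deposited linear probe set intensities for each array. How these intensities were made is not given in the sources used here. The mean after trimming 2% at each end varied little, from 150.049 to 150.066 across MA arrays and from 150.018 to 150.03 across MB arrays. So the arrays of a design already shared a scale, and they were kept as deposited. Probe sets were named from the platform annotation (20393 with 1 gene on MA, 14674 on MB). The 64 control probe sets of each design were left out. The 40th percentile filter left 13575 of 22690 probe sets on MA and 13506 of 22575 on MB.

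Each design was fitted apart on log2(intensity + 20) with 4 group means in limma 3.58.1 (R 4.3.3, eBayes with trend), and p-values were adjusted by Benjamini-Hochberg. The code was tested on simulated data. The number of arrays limits the precision. Alternatives covered the pseudocount, filter, normalization, variance model, arrays used, the 18S split, the replicate number and each culture left out.

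All members are given. Up to 4 called genes per list with the smallest adjusted p could be named, and the 3 most correlated genes per called member. Members and lists were chosen with earlier results of these data known.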

Additional observations from a re-analysis of the deposited data

How the results depend on the processing

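No member's called change reversed direction under any of the 24 alternatives. At 25 mM glucose 189 of 216 pairs of a called probe set and an alternative stayed called and 27 did not; at 5 mM these were 194 and 22. Leaving out each culture in turn gave 5 to 9 called member probe sets between the media at 25 mM, where 18.1% to 22.4% of all tested probe sets were called. The 5 came without GM 25 mM replicate 2 (18.1% of all). At 5 mM it gave 7 to 9, where 13% to 18.1% of all were called. For both glucose comparisons and the interaction it gave 0 each time. With the 8 high-18S cultures alone, fewer members and fewer of all tested probe sets were called at 5 mM than in the main fit. There GM is left with 1 culture, assumed to vary like the other groups.

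The labels do not say what the replicate numbers mark. After each group's mean was subtracted, same-numbered cultures of different groups correlated between -0.561 and 0.521 on MA (3 of 18 pairs over 0.1). On MB they correlated between -0.217 and 0.24 (2 of 18). The highest value on both designs joined replicate 2 of GM 5 mM and DM 5 mM, both low-18S cultures. These values do not settle whether the numbers mark a pairing. With the replicate number as a block the member counts were 8 at 25 mM and 9 at 5 mM, where 19.8% and 16% of all tested probe sets were called. They were 0 for glucose in GM, glucose in DM and the interaction. The single call lost under the block was Hdac3 at 25 mM (limma adjusted p = 0.0739). Hdac9 was too dim to test. For each comparison of 2 groups the SE on MB was 0.51 for Hdac8. For Hdac4 it was 0.20 on 1454693_at, 0.25 on 1436758_at and 0.58 on 1447566_at. Why Hdac4 and Hdac8 were not called was not tested.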
